A study of Homo sapiens with 9 samples.

Results

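ATP-binding cassette (ABC) genes were followed across PC3 and LNCaP prostate cancer cells. Members were all genes of the deposited count table whose symbol is ABCA, ABCB, ABCC, ABCD, ABCE, ABCF or ABCG plus a number and nothing else, which gave 46 of 28216 genes. They comprised 12 ABCA, 9 ABCB, 12 ABCC, 4 ABCD, 1 ABCE, 3 ABCF and 5 ABCG genes. PC3 is an androgen-insensitive line and LNCaP an androgen-sensitive line, and both were derived from metastatic disease. PC3 cells were untreated and grown in F12K medium with 10% serum. LNCaP cells (clone FCG) spent 24 h in phenol red-free RPMI medium with 10% charcoal-stripped serum, which is depleted of steroids, and then received 10 nM dihydrotestosterone (DHT) or 0.01% ethanol as vehicle for 48 h. The labels give DHT, and the study's methods name the agent as a synthetic form of it, R1881, so the groups are called androgen-treated and vehicle-treated here. There were 3 poly(A) RNA libraries in each of the 3 groups, all of wild-type cells, and medium and serum differ together with the cell line, so that their effects cannot be told apart. The sources used here do not say whether the libraries of a group came from separate cultures, and the p-values then measure only the spread between these libraries.

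ABC proteins bind and split ATP on a conserved pair of nucleotide-binding domains. In most subfamilies this drives lipids, sterols, bile salts, peptides, drugs or their conjugates across a membrane, whereas ABCE and ABCF proteins have no membrane-spanning part and act on ribosomes. In prostate cells the family is best known for the ABCC proteins, also called multidrug resistance-associated proteins, which carry organic anions and drug conjugates, and for the ABCA and ABCG proteins that move cholesterol out of cells.

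Library depth ranged from 17397706 to 25640325 counts on genes, and a count of 0 allowed a level of up to 0.118 to 0.165 CPM (counts per library, scaled to equal depth), taking 3 counts as the limit of counting error. The labels were checked against marker genes. The summed level of 4 androgen-response genes (KLK3, KLK2, TMPRSS2 and FKBP5) was 9268 to 10058 CPM in androgen-treated LNCaP cells, 806 to 1048 CPM in vehicle-treated cells and 46.2 to 52.0 CPM in PC3 cells, where KLK2 had no count. The summed level of VIM, CAV1 and CD44 was 1946 to 2107 CPM in PC3 and at most 18.1 CPM in any LNCaP library. Of the other cell types the 4 leukocyte markers summed to at most 0.512 CPM, whereas COL1A1 gave most of the 12.1 to 41.7 CPM of the fibroblast list and VWF most of the 16.3 to 18.4 CPM of the endothelial list in vehicle-treated cells. PC3 replicate 3 stood apart from the other PC3 libraries for several members, which is stated below for ABCC3, ABCA13, ABCA8 and ABCA10. It was also the highest PC3 library for ABCA3 (59.1, 57.3 and 72.1 CPM), ABCA7 (30.3, 29.0 and 40.1 CPM) and ABCC5 (41.7, 44.3 and 57.2 CPM).

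The promoters of 5 members that changed with androgen are shown first, because they differ in sequence type. Those of ABCC4 and ABCA5, which rose, were rich in CG pairs, and those of ABCB11 and ABCA12, which fell, were poor in them. The promoter of ABCA1, which also fell, lay between, and ABCC1, which also rose, had no matched promoter. A link between CG pairs and the direction of change was not tested. Sequences are the bases before the RefSeq transcription start on GRCh38.p14, on the minus strand, at chr13:95301476-95301701 for ABCC4, chr17:69327245-69327383 for ABCA5, chr9:104928156-104928405 for ABCA1, chr2:215138627-215138876 for ABCA12 and chr2:169031325-169031574 for ABCB11. Bases that GENCODE places inside the gene were left out, so ABCC4 has 226 bases and ABCA5 139 bases, against 250 for the others. Capitals mark AGAACA (the core of androgen receptor binding sequences), CACGTG (an E-box), GGGCGG (a GC box) and TATAAA on either strand.
ABCC4: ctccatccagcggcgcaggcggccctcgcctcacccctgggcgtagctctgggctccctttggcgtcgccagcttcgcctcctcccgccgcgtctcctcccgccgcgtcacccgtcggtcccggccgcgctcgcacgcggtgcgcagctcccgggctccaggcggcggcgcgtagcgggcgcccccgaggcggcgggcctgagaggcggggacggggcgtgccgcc
ABCA5: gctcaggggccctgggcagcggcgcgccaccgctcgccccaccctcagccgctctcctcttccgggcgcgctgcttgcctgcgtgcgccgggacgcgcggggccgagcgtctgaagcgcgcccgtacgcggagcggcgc
ABCA1: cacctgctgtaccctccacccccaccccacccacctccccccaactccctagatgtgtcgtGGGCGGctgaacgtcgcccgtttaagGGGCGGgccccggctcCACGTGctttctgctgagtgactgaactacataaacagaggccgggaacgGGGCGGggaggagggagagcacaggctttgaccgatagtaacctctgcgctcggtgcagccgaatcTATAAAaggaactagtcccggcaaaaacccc
ABCA12: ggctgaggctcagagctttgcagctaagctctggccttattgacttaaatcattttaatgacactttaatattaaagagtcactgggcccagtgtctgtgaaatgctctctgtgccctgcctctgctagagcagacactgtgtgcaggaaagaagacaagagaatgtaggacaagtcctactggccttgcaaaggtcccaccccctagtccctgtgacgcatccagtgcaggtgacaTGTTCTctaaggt
ABCB11: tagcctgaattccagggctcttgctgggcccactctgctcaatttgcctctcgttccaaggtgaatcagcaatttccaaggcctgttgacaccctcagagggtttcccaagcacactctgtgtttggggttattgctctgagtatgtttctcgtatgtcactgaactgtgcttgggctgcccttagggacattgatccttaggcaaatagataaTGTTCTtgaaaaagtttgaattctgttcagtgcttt

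The full 250 bases before the start held 42 CG pairs for ABCC4 and 42 for ABCA5, 16 for ABCA1, 2 for ABCB11 and 1 for ABCA12. AGAACA, read as TGTTCT on the strand shown, was present once each in the windows shown of ABCA12 and ABCB11 and was not found in these windows of ABCC4, ABCA5 and ABCA1. ABCA12 has another RefSeq start inside the gene, not shown. Its window (chr2:215032087-215032336) held 2 CG pairs, an E-box and no AGAACA. ABCA1 held 3 GC boxes, an E-box and a TATAAA, and the full window of ABCA5 held a GC box inside the part not shown. These matches describe letters only. Over all members, RefSeq promoters were matched for 35 of the 46 genes, with 53 start sites, and AGAACA was in 11.3% of them against 12.4% of all 35114 promoters. CACGTG was in 17% against 6.35%, GGGCGG in 47.2% against 42.6% and TATAAA in 11.3% against 10.7%. Windows of nearby start sites overlap, as within ABCG2 and between ABCG5 and ABCG8, so a match can be counted more than once. The differences between these shares were not tested. The 28 promoters of members that reached the expression filter below had a median of 19 CG pairs, the 25 promoters of members below it a median of 7, and all promoters a median of 11.

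Members differed widely in level (the heat map by library). Of the 46 genes, 28 exceeded 3 CPM in at least 3 libraries of 1 or more comparisons and were tested there, and 22 were tested in all 3 comparisons. The other 18 were tested in none. ABCC13, ABCG5 and ABCG8 had no count in any library, and ABCB1 and ABCC12 had at most 1 and 3 counts. ABCB1 encodes P-glycoprotein, the classical multidrug pump, and ABCG5 and ABCG8 form the exporter of plant sterols. None of these 5 could be told from 0 at this depth.

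**Figure D1:**
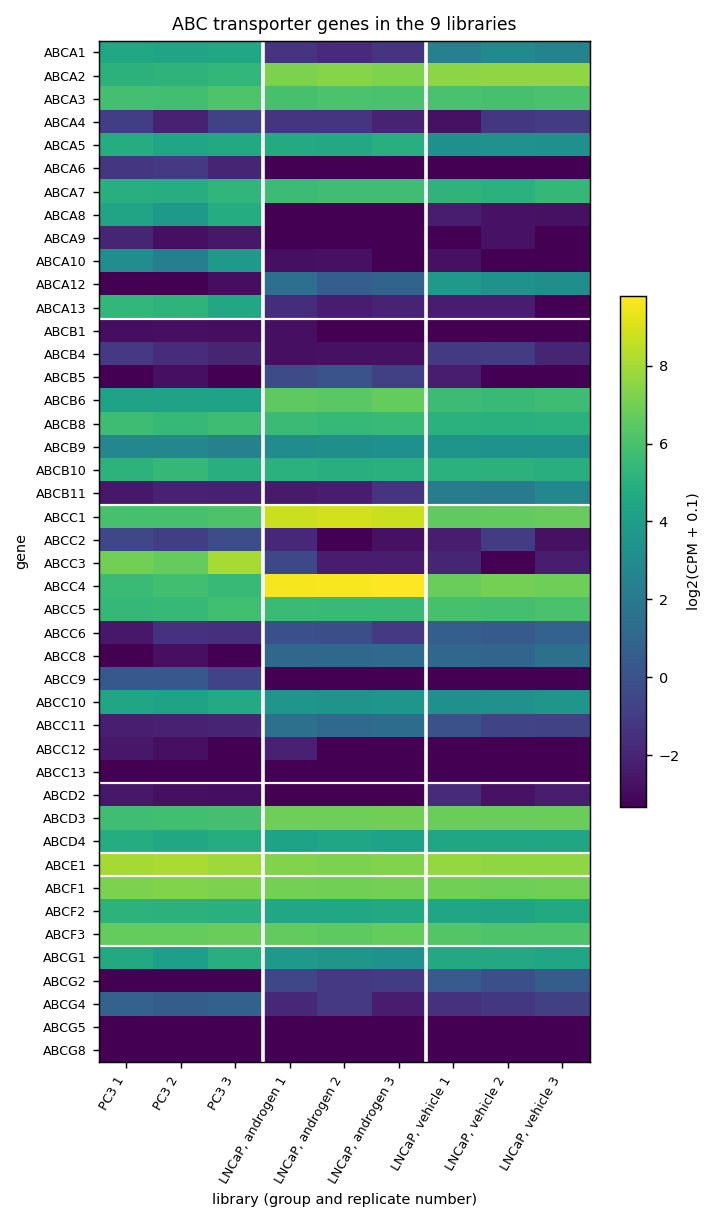
Level of 44 ABC genes (rows, ordered by subfamily) in the 9 libraries (columns), as log2(CPM + 0.1), with the colour scale at the right. White lines part the groups and the subfamilies. ABCC1 and ABCC4 are brightest in the 3 androgen-treated libraries, ABCC3, ABCA8, ABCA10 and ABCA13 are bright only in PC3, and the ABCE1, ABCF1 and ABCF3 rows are high throughout.

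Divided by the length of each gene's exons, the highest member in PC3 was ABCE1 with 40.8 ± 3.26 CPM per kb (SD, n = 3), followed by ABCF1 with 33.6 ± 1.74 and ABCF3 with 20.6 ± 0.845. These proteins serve translation, ABCE1 by splitting ribosomes after termination. Counts of ABCE1, and of ABCB9 and ABCC6 below, carry an added uncertainty, since 7.67%, 22.4% and 16.8% of their 74-nt stretches have a copy outside the gene or in a transcript of another gene on either strand. Genes on the opposite strand overlap ABCE1 (ANAPC10 and OTUD4) and ABCB9 (ARL6IP4 and OGFOD2), and a stretch shared with such a gene counts in these shares. Reads on the other strand made up 0.259% of those at ABCE1 and 0.369% of those at ABCB9. ABCC3 ranked 4th in PC3 with 17.6 ± 9.50 CPM per kb and only 30th and 34th in androgen-treated and vehicle-treated LNCaP cells. In vehicle-treated LNCaP cells ABCE1 (32.3 ± 0.964) and ABCF1 (27.6 ± 0.984) again led, and ABCA2 had 16.7 ± 0.639. In androgen-treated LNCaP cells the order was different. ABCC4 led with 95.6 ± 6.03 CPM per kb and ABCC1 followed with 50.4 ± 3.36, both above ABCF1 with 29.1 ± 0.943.

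All members together took 0.141% to 0.155% of the counts in PC3, 0.152% to 0.157% in vehicle-treated LNCaP and 0.233% to 0.242% in androgen-treated LNCaP. ABCC4 alone gave 32.2% to 34.3% of the ABC counts under androgen and 7.46% to 8.99% under vehicle. Without ABCC4 and ABCC1 the other 44 members took 0.115% to 0.119% of the counts under androgen and 0.128% to 0.133% under vehicle. On the scaled CPM used for single genes these 44 members summed to 1219 to 1269 CPM under androgen and 1224 to 1264 CPM under vehicle, and the libraries overlapped. The higher share of the family under androgen was thus held by ABCC4 and ABCC1. The summed ABCC level was 1329 ± 47.8 CPM under androgen, 299 ± 14.99 CPM under vehicle and 357 ± 103 CPM in PC3 (SD, n = 3).

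The comparison of androgen-treated with vehicle-treated LNCaP cells asks how the family moves with androgen in the same line. A gene was called when edgeR's quasi-likelihood F test gave a Benjamini-Hochberg adjusted p-value under 0.05 over all genes and the fold change was at least 2. Androgen raised ABCC4, ABCC1 and ABCA5 and lowered ABCB11, ABCA1 and ABCA12, 6 of 24 members tested, or 25%. Over all 11697 genes tested, 14% were called, 6.54% higher and 7.49% lower. By the adjusted p-value alone 16 members, or 66.7%, passed against 74.9% of all genes. The median log2 fold change was 0.00 for the members and -0.01 for all genes, both close to 0. ABCB11, ABCA1 and ABCA12 were below 3 CPM in every androgen library and passed the filter through the vehicle libraries alone, so a direction other than lower was hardly possible for them. In bulk RNA, fewer cells expressing a gene and less RNA per cell cannot be told apart.

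ABCC4, located at 13:95019835-95301475 (GRCh38, minus strand), exports cyclic nucleotides, prostaglandins and nucleotide drugs. Its level was 787, 803 and 884 CPM in the 3 androgen libraries, 109, 131 and 118 CPM in the 3 vehicle libraries and 48.9, 57.1 and 46.4 CPM in PC3. The lowest androgen library thus lay far above the highest vehicle library, and PC3 lay below both groups without overlap. ABCC4 rose 6.92-fold with androgen (log2 2.79 ± 0.06 SE, adjusted p = 7.19e-13 by edgeR).

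ABCC1, the first multidrug resistance-associated protein described, exports glutathione conjugates and leukotriene C4 and lies on the plus strand at 16:15949138-16143257. Androgen libraries held 423, 474 and 423 CPM and vehicle libraries 96.2, 101 and 107 CPM, while PC3 libraries held 63.3, 62.7 and 70.4 CPM. The 3 groups did not overlap, in the same order as for ABCC4. The rise was 4.33-fold (log2 2.12 ± 0.05 SE, edgeR adjusted p = 2.42e-12).

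ABCA5 is a lysosomal member of the lipid-carrying ABCA subfamily. It had 25.7, 24.3 and 29.4 CPM with androgen and 9.54, 9.99 and 9.50 CPM with vehicle. The PC3 libraries, at 27.7, 21.7 and 24.7 CPM, overlapped the androgen-treated and not the vehicle-treated libraries. ABCA5 rose 2.74-fold with androgen (log2 1.45 ± 0.09 SE, edgeR adjusted p = 6.56e-09).

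**Figure D2:**
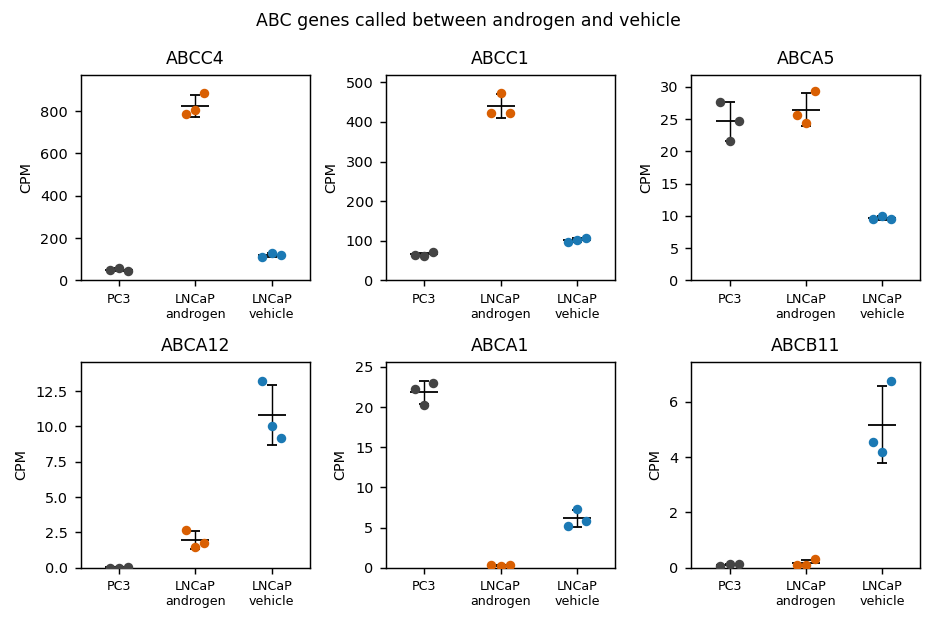
Level in CPM (vertical axes, starting at 0, a different scale in each panel) of the 6 ABC genes that androgen changed in LNCaP cells. Points are single libraries of PC3, androgen-treated and vehicle-treated LNCaP cells, and the cross marks the mean and SD (n = 3). ABCC4, ABCC1 and ABCA5 were higher with androgen, ABCA12, ABCA1 and ABCB11 were higher with vehicle, and only ABCA1 was highest in PC3.

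ABCA1 passes cholesterol and phospholipid to apolipoprotein A-I, the first step of high-density lipoprotein formation. Its level was 5.19, 7.35 and 5.84 CPM with vehicle and 0.313, 0.197 and 0.302 CPM with androgen, from 4 to 7 counts a library. In PC3 it reached 22.2, 20.3 and 23.03 CPM, and the 3 groups were apart. ABCA1 fell by 4.46 on the log2 scale with androgen, which is 21.9-fold (SE 0.26, edgeR adjusted p = 4.53e-09). ABCG1, which passes sterols on to lipoprotein particles, had 25.2, 23.7 and 20.7 CPM with vehicle and 13.7, 12.4 and 10.6 CPM with androgen. All its androgen libraries were below all its vehicle libraries, yet the log2 fold change of -0.92 ± 0.10 SE stayed short of a 2-fold change (edgeR adjusted p = 3.56e-06). Without androgen replicate 1 it was -1.02 and passed.

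ABCB11, the bile salt export pump of hepatocytes, had 4.56, 4.17 and 6.75 CPM with vehicle. With androgen it had 0.0895, 0.0987 and 0.302 CPM, or 2, 2 and 6 counts, and PC3 had 2, 3 and 3 counts. Only the vehicle-treated libraries thus held ABCB11 clearly above the counting limit. The gene fell by 4.96 on the log2 scale with androgen (SE 0.36, edgeR adjusted p = 4.83e-08), and its log2 fold change was -5.69 when androgen replicate 3 was left out. ABCA12, which loads glucosylceramide into the lamellar granules of skin, fell from 13.2, 10.0 and 9.19 CPM to 2.69, 1.43 and 1.76 CPM. The fall was 5.43-fold (log2 -2.44 ± 0.21 SE, edgeR adjusted p = 1.85e-07). PC3 held 1 ABCA12 count in 1 library and none in the other two, and 8.86% of the ABCA12 reads over all libraries lay on the other strand.

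**Figure D3:**
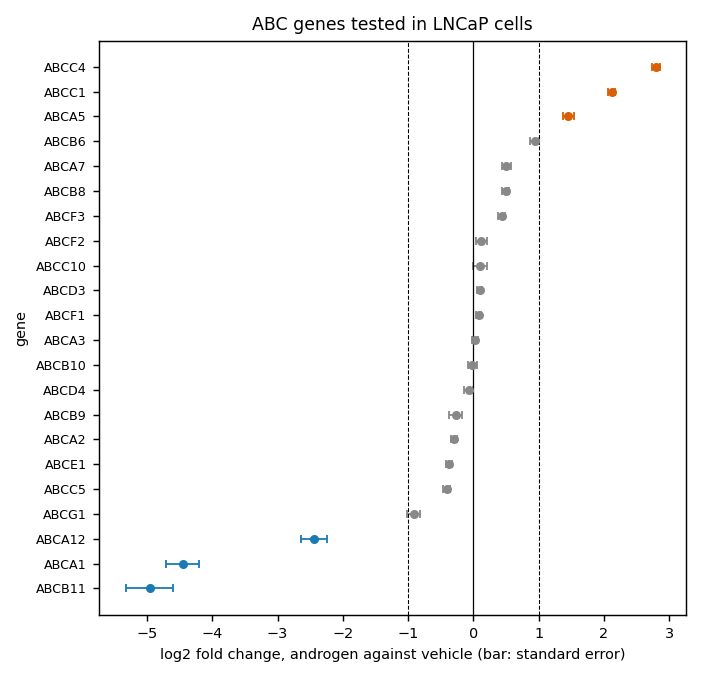
Log2 fold change of androgen-treated against vehicle-treated LNCaP cells (horizontal axis, bars are the standard error) for 22 of the ABC genes tested, ordered by size. Dashed lines mark a 2-fold change. The coloured points of ABCC4, ABCC1 and ABCA5 on the right and of ABCA12, ABCA1 and ABCB11 on the left lie beyond those lines, and ABCB6 and ABCG1 lie just inside them.

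Another 10 members passed the adjusted p-value with less than a 2-fold change, 5 higher and 5 lower with androgen. ABCB6, a porphyrin carrier, was nearest the limit with 94.2 ± 9.08 CPM against 49.1 ± 3.85 CPM, a log2 fold change of 0.94 ± 0.07 SE (edgeR adjusted p = 6.22e-08). It was called, at 1.00, without androgen replicate 2. The other higher members were ABCA7, the mitochondrial ABCB8, the peroxisomal ABCD3 and ABCF3, at log2 0.10 to 0.50. The lower members were ABCG1, ABCC5, ABCE1, ABCA2 and ABCB9, of which all but ABCG1 lay between -0.41 and -0.27. The remaining 8 members did not pass. Among them were ABCA3, which carries surfactant lipids in lung, ABCB10 of mitochondria, ABCC10, ABCD4, which serves cobalamin transport in lysosomes, ABCF1 and ABCF2, with log2 fold changes between -0.07 and 0.12.

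PC3 cells were then set against each LNCaP group, which asks how the family differs between the androgen-insensitive and the androgen-sensitive line. These comparisons share the PC3 libraries, and each shares its LNCaP libraries with the androgen comparison, so their values are given side by side. Against androgen-treated LNCaP, 26 members were tested and 10 were called, 5 higher and 5 lower. This was 38.5% of the members against 46% of all 12541 genes, of which 24% were higher and 22.1% lower. The adjusted p-value alone was passed by 19 members, or 73.1%, against 84% of all genes. Against vehicle-treated LNCaP, 28 members were tested and 13 were called, 7 higher and 6 lower. That was 46.4% of the members against 43.2% of all 12686 genes, of which 22.2% were higher and 21% lower, and 23 members, or 82.1%, passed the adjusted p-value alone against 83.4% of all genes. The median log2 fold change of the members was 0.10 and 0.13, and that of all genes 0.04 and 0.03. The share of members called lay near that of all genes, so the family gave no result as a whole and the values of its single members are described. ABCC3, ABCA13, ABCA8 and ABCA10 passed the filter through PC3 alone, as did ABCA1 against androgen-treated LNCaP, and ABCB11 and ABCA12 passed through vehicle-treated LNCaP alone. Their direction was set by that filter, and their calls are no support beyond the levels given.

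Among the members higher in PC3, ABCC3, ABCA13, ABCA8 and ABCA10 had at most 14 counts in any LNCaP library. ABCC3 exports glucuronide conjugates and bile salts across the basolateral membrane, and lies at 17:50634777-50692253 on GRCh38. It had 128, 105 and 273 CPM in PC3, with replicate 3 far above the others. LNCaP libraries held 14, 2 and 2 counts with androgen and 3, 0 and 2 counts with vehicle. Against androgen-treated LNCaP the log2 fold change was 9.16 ± 0.64 SE (edgeR adjusted p = 3.4e-06), and 10.66 without androgen replicate 1. Against vehicle-treated LNCaP the ratio of pooled counts per depth was 1946, with a 95% counting interval from 834 to 5995. This interval and those that follow cover counting error only.

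ABCA13, the largest protein of the ABCA subfamily, had 40.3, 36.9 and 22.7 CPM in PC3, with replicate 3 the lowest. It had 5, 2 and 3 counts in the androgen libraries and 2, 2 and 0 counts in the vehicle libraries. Its log2 fold change against androgen-treated LNCaP was 7.66 ± 0.38 SE (edgeR adjusted p = 5.72e-07), and its ratio to vehicle-treated LNCaP was 473 (counting interval 184 to 1737).

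ABCA8 had 20.2, 13.5 and 28.0 CPM in PC3, no count in any androgen library and 2, 1 and 1 counts in the vehicle libraries. It was at least 142-fold higher in PC3 than in androgen-treated LNCaP, taking 3 counts per library as the limit, and 296-fold higher than in vehicle-treated LNCaP (counting interval 115 to 1088). ABCA10 had 8.38, 4.96 and 13.4 CPM in PC3, and at most 1 count in any LNCaP library. Its ratio was 282 (77.8 to 2333) against androgen-treated and 515 (92.1 to 20365) against vehicle-treated LNCaP. PC3 replicate 3 was the highest PC3 library for both genes. The 4 genes stood in LNCaP libraries at 0% to 0.672% of their PC3 mean, while the 3 PC3 markers VIM, CAV1 and CD44 stood there at 0.0814% to 0.895%. The part of shared reads or cells between libraries in these few counts was not tested.

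ABCA8 and ABCA10 belong to a row of 5 ABCA genes on the minus strand of chromosome 17 that spans 460 kb, from ABCA8 (17:68867289-68955392) through ABCA9 (17:68974488-69060949), ABCA6 (17:69078702-69141895) and ABCA10 (17:69147214-69244846) to ABCA5 (17:69244311-69327244). ABCA5 lay above its neighbour ABCA10 in all groups, whereas ABCA8, ABCA9, ABCA6 and ABCA10 were all under the counting limit in LNCaP. ABCA5 was above 9 CPM in every library, and ABCA10, whose annotated start overlaps the end of ABCA5 on the same strand, had at most 1 count in LNCaP. ABCA6 had 8, 8 and 4 counts in PC3 and none in LNCaP, and ABCA9 had 4, 1 and 2 counts in PC3 and a single count in all of LNCaP. ABCA5 was the only gene of the row tested between androgen and vehicle, since the other 4 did not pass the filter there.

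**Figure D4:**
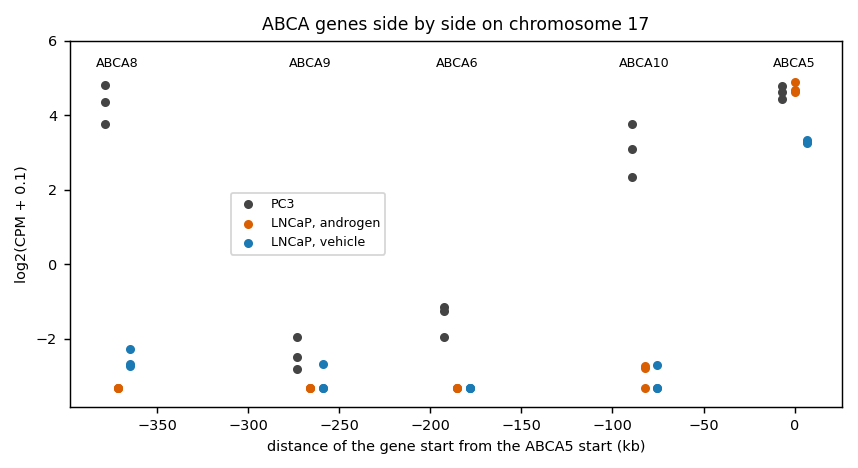
Level as log2(CPM + 0.1) (vertical axis) of the 5 ABCA genes of the chromosome 17 row, placed by the distance of each gene's start from the ABCA5 start in kb (horizontal axis). Points are libraries, shifted sideways by group. ABCA5 is expressed in all 3 groups, ABCA8 and ABCA10 in PC3 alone, and ABCA9 and ABCA6 are near the bottom everywhere.

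ABCA1 was higher in PC3 than in either LNCaP group. The log2 fold change was 6.30 ± 0.17 SE against androgen-treated LNCaP (edgeR adjusted p = 4.06e-08) and 1.86 ± 0.13 SE against vehicle-treated LNCaP (edgeR adjusted p = 4.84e-06), or 78.7-fold and 3.63-fold. ABCA5 was higher only against vehicle-treated LNCaP, by 1.37 ± 0.11 SE (edgeR adjusted p = 8.55e-06), and its log2 fold change against androgen-treated LNCaP was -0.10 ± 0.11 SE (edgeR adjusted p = 0.441). ABCC10, which can carry taxanes, had 20.8, 19.6 and 26.0 CPM in PC3 against 11.4, 11.1 and 11.6 CPM with androgen and 9.38, 10.0 and 12.2 CPM with vehicle. PC3 did not overlap either LNCaP group for ABCC10. Its log2 fold change was 1.09 ± 0.14 SE against vehicle-treated LNCaP (edgeR adjusted p = 0.000175), and 0.94 without PC3 replicate 3, which ends the call. Against androgen-treated LNCaP it was 0.96 ± 0.12 SE and short of 2-fold.

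Lower in PC3 than in both LNCaP groups were ABCC4, ABCA2 and ABCB6. ABCC4 fell by 4.02 on the log2 scale against androgen-treated LNCaP (16.2-fold, SE 0.11, edgeR adjusted p = 3.97e-08) and by 1.21 against vehicle-treated LNCaP (2.31-fold, SE 0.11, edgeR adjusted p = 1.46e-05). ABCA2, an endosomal and lysosomal protein of sterol handling, had 33.8, 36.6 and 41.3 CPM in PC3, 148, 168 and 154 CPM with androgen and 184, 194 and 198 CPM with vehicle. The 3 groups were apart for ABCA2. Its log2 fold change was -2.07 ± 0.09 SE against androgen-treated and -2.34 ± 0.08 SE against vehicle-treated LNCaP (edgeR adjusted p = 2.42e-07 and 1.04e-07).

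ABCB6 had 19.0, 19.0 and 19.2 CPM in PC3, 93.1, 85.7 and 103.7 CPM with androgen and 50.1, 44.9 and 52.4 CPM with vehicle. Its PC3 libraries were the most alike of the 3 groups, and no groups overlapped. The log2 fold changes were -2.30 ± 0.08 SE and -1.34 ± 0.08 SE (edgeR adjusted p = 1.34e-07 and 2.03e-06). ABCC1 was lower in PC3 than in androgen-treated LNCaP by -2.75 ± 0.08 SE (edgeR adjusted p = 4.54e-08). Against vehicle-treated LNCaP its log2 fold change was -0.61 ± 0.07 SE, which passed the adjusted p-value (6.28e-05 by edgeR) and not the 2-fold limit.

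ABCD3, which imports branched-chain fatty acids and bile acid precursors into peroxisomes, lay close to the 2-fold limit. It had 54.1, 57.3 and 59.5 CPM in PC3, 117, 119 and 125 CPM with androgen and 113, 111 and 114 CPM with vehicle. Every PC3 library lay below every LNCaP library. The log2 fold change of ABCD3 was -1.08 ± 0.06 SE against androgen-treated LNCaP (edgeR adjusted p = 1.02e-06) and -0.96 ± 0.06 SE against vehicle-treated LNCaP, short of a call. Without PC3 replicate 3 it was called there too, at -1.01.

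ABCB11 and ABCA12 were lower in PC3 than in vehicle-treated LNCaP. The vehicle level was 47.9-fold that of PC3 for ABCB11 (counting interval 24.0 to 112) and 797-fold for ABCA12 (142 to 31526). Neither was tested against androgen-treated LNCaP, where the ABCB11 libraries overlapped those of PC3 and the ABCA12 level was 146-fold (25.8 to 5830) that of PC3.

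**Figure D5:**
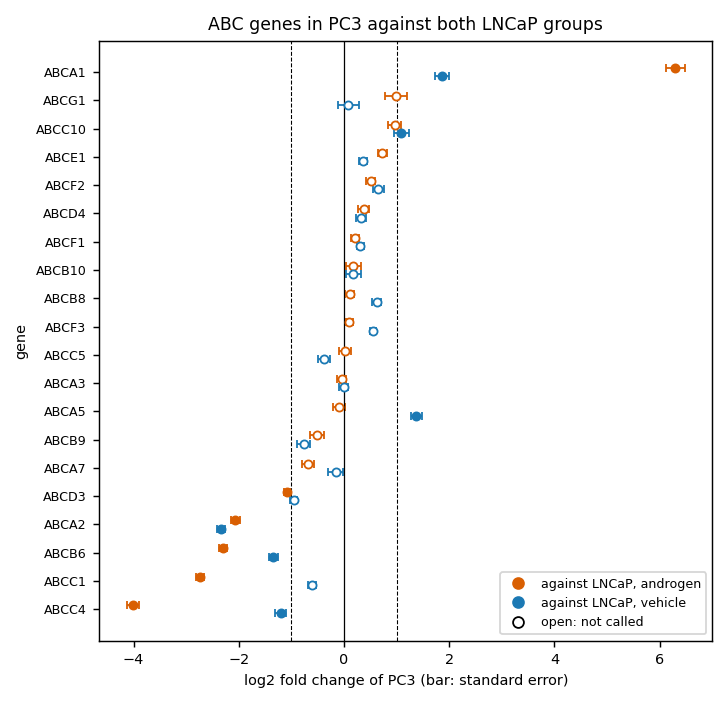
Log2 fold change of PC3 against androgen-treated and against vehicle-treated LNCaP cells (horizontal axis, bars are the standard error) for 20 ABC genes tested in both that did not fall to the counting limit in a group. Filled points were called, open points were not, and dashed lines mark a 2-fold change. ABCA1 lies far right against androgen-treated cells, ABCC4 and ABCC1 lie further left against androgen-treated than against vehicle-treated cells, and the ABCF genes stay between the dashed lines.

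The remaining tested members differed less than 2-fold between the lines or did not pass. Against androgen-treated LNCaP, 9 members passed the adjusted p-value below 2-fold, 6 higher and 3 lower in PC3, and 7 did not pass. Against vehicle-treated LNCaP, 10 passed below 2-fold, 6 higher and 4 lower, and 5 did not pass. ABCE1 had 257, 275 and 234 CPM in PC3, 160, 146 and 160 CPM with androgen and 209, 198 and 198 CPM with vehicle. The groups did not overlap, and the log2 fold change of PC3 was 0.72 ± 0.09 SE and 0.36 ± 0.08 SE. ABCF1 (0.21 and 0.31) and ABCF2 (0.50 and 0.65), which bind ribosomes or initiation factors, passed in both comparisons, and ABCF3 passed against vehicle-treated LNCaP only (0.10 and 0.55). ABCG1 had 25.1, 16.96 and 30.6 CPM in PC3, a wide spread, and its log2 fold change was 0.98 ± 0.21 SE against androgen-treated LNCaP (edgeR adjusted p = 0.00284), short of 2-fold, and 0.08 ± 0.20 SE against vehicle-treated LNCaP (edgeR adjusted p = 0.702). ABCG1 was called against androgen-treated LNCaP without PC3 replicate 2 or without androgen replicate 1, at up to 1.18. ABCA3 and ABCB10 passed in neither comparison.

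Among the 18 members below the filter, several still differed beyond counting error and are given as counts. ABCC8, the sulfonylurea receptor SUR1 of the ATP-sensitive potassium channel, had 42, 42 and 42 counts with androgen, 36, 34 and 54 with vehicle and 0, 1 and 0 in PC3. ABCC9, the related receptor SUR2, showed the opposite, with 28, 25 and 13 counts in PC3 and none in LNCaP. The pooled LNCaP level of ABCC8 was 149-fold (26.2 to 5923) and 160-fold (28.3 to 6386) that of PC3, and ABCC9 was at least 6.23-fold and 5.70-fold higher in PC3 than with androgen and with vehicle. The channel pores that pair with these receptors were on a separate list. KCNJ11 was called lower in PC3 (1.76 ± 0.563 CPM against 6.14 ± 0.1997 and 5.89 ± 0.353 CPM in LNCaP), and KCNJ8, named after its values were seen, had 2.85 ± 0.888 CPM in PC3 and no count in LNCaP. KCNJ11 passed the filter through LNCaP alone, so its direction was set by that filter.

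ABCG2, the breast cancer resistance protein, had no count in PC3, 14, 7 and 8 counts with androgen and 24, 15 and 27 with vehicle. It was at least 3.75-fold and 9.41-fold lower in PC3, and its androgen and vehicle libraries did not overlap. ABCB5 had 16, 19 and 9 counts with androgen, 2, 0 and 0 with vehicle and 0, 1 and 0 in PC3. ABCC11, known for its variant that sets the earwax type, had 62, 43 and 48 counts with androgen, 16, 10 and 10 with vehicle and 3, 3 and 4 in PC3. LONP2 lies across ABCC11 on the opposite strand, and 86.0% of the reads at ABCC11 were on that strand, so its few counts are uncertain. ABCC6 had 18, 16 and 7 counts with androgen, 28, 22 and 32 with vehicle and 2, 6 and 6 in PC3. Over all libraries 22.2% of the ABCC6 reads lay on the other strand, so its counts are uncertain too. ABCG4, a sterol exporter of brain, had 41, 31 and 40 counts in PC3 against 2 to 9 in LNCaP, and ABCC2, the apical relative of ABCC3, 15, 10 and 19 against 0 to 7. ABCA4, ABCB4 and ABCD2 stayed at or below 12, 9 and 4 counts.

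Genes that work with the members were taken from lists chosen with earlier results of these data known, and are given by their counts of calls. Over all genes, 46% were called between PC3 and androgen-treated LNCaP, 43.2% between PC3 and vehicle-treated LNCaP, and 14% between the treatments. Whether a list differed from these shares was not tested, so its calls describe single genes only. Of 14 genes around sterol efflux, 11 were tested between the lines and 8 between the treatments. APOE, PLTP and LCAT, proteins of lipoprotein particles, were higher in PC3 than in both LNCaP groups. They passed the filter through PC3 alone, so their direction was set by that filter. PLTP had 71.5 ± 4.76 CPM in PC3 and 0.345 ± 0.173 and 0.262 ± 0.137 CPM in androgen-treated and vehicle-treated LNCaP. RXRA, which pairs with the liver X receptors that induce ABCA1, was lower in PC3 than in both (36.5 ± 5.21 against 105 ± 6.56 and 127 ± 3.45 CPM), and SCARB1 was lower against androgen-treated LNCaP. Androgen raised NPC1, which lets cholesterol leave lysosomes, from 47.0 ± 6.41 to 221 ± 25.4 CPM (log2 2.24 ± 0.10 SE, edgeR adjusted p = 2.63e-10), and no gene of this list was called lower with androgen. NPC1 in PC3 was 212 ± 39.4 CPM, called higher than in vehicle-treated LNCaP, where NR1H2, a liver X receptor, was called higher in PC3 as well.

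Of 11 peroxisomal genes around ABCD3, 10 were tested. HSD17B4 and SLC27A2, enzymes of very-long-chain and branched-chain fatty acid use, were lower in PC3 than in both LNCaP groups, at 87.0 ± 2.21 against 397 ± 14.2 and 257 ± 3.48 CPM for HSD17B4. SLC27A2 passed the filter through LNCaP alone, which set its direction. ACOX3 and ACAA1 were lower only against androgen-treated LNCaP, EHHADH was higher there, and androgen raised ACOX3 and ACAA1. Of 14 genes of mitochondrial iron, heme and iron-sulfur clusters, the setting of ABCB6, all were tested. FECH, which inserts iron into heme, was lower in PC3 than in both LNCaP groups (53.8 ± 2.89 against 544 ± 15.4 and 274 ± 2.75 CPM), SLC25A37 was lower against androgen-treated LNCaP, and no gene was called with androgen. FECH and TMEM14C were higher with androgen just short of 2-fold, at log2 0.989 ± 0.036 SE and 0.997 ± 0.040 SE (edgeR adjusted p = 5.29e-11 and 1.36e-10). The median log2 fold change of this list with androgen was 0.02.

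Of 13 xenobiotic receptors and organic ion carriers, 6 were tested between the lines. AHR, SLCO1B3 and SLCO4A1 were higher in PC3 than in both LNCaP groups and SLC22A3 was lower, with no call for androgen. SLCO1B3 passed the filter through PC3 alone and SLC22A3 through LNCaP alone, which set their directions. SLCO4A1, an uptake carrier of organic anions, had 341 ± 108 CPM in PC3 and 26.1 ± 2.23 and 22.1 ± 2.90 CPM in LNCaP. Of 10 genes of ribosome recycling and the GCN2 pathway, the setting of ABCE1, GSPT1 was lower in PC3 than in androgen-treated LNCaP and EIF6 higher than in vehicle-treated LNCaP. Of the ABC proteins whose symbol falls outside the rule, TAP1 and TAP2 were tested, and TAP2, a subunit of the peptide transporter for antigen presentation, was higher in PC3 than in androgen-treated LNCaP (87.8 ± 5.58 against 34.1 ± 0.352 CPM).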

How the data were processed

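RNA was measured in 9 libraries, 3 each of PC3, androgen-treated LNCaP and vehicle-treated LNCaP cells, grouped by the labels. The authors trimmed, aligned to hg38 and deduplicated 74-nt reads (cutadapt 4.1, STAR 2.7.7a and UMI-tools 1.1.2 in the submitters' processing notes, though the study's methods give other versions for cutadapt and STAR) and deposited counts, whole reads per gene without normalization. All 253944 values equalled STAR's forward-strand column, and 0 library columns were left out. Between 20.3% and 25.4% of a library's reads were not counted on a gene.

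The study's filter was kept (more than 3 CPM in at least 3 libraries of a fit). TMM scaling and the quasi-likelihood F test of edgeR 4.0.16 in R 4.3.3 were run on the 6 libraries of each comparison, with Benjamini-Hochberg adjustment over all genes tested. A call needed at least a 2-fold change with an adjusted p-value under 0.05. The study used the likelihood ratio test with a batch term, whose batches no source names. Printed CPM were scaled by TMM factors of all 9 libraries together. The standard error is the log2 fold change divided by the square root of F. Where no library of a group exceeded 3 counts, the ratio of counts per depth with an exact 95% binomial interval, or a lower bound against 3 counts per library, replaces the fitted value. The scripts were tested on simulated data.

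Gene locations, exon lengths and 74-nt stretches come from GENCODE 44 and promoters from RefSeq, both on GRCh38. Members are named, those called with every library's value, and other genes only from the partner lists. A few genes are counted in the totals and not reported here by name. Members and lists were chosen with earlier results of these data known. Replicate numbers were checked for pairing. Deviations from the group means correlated at 0.198, 0.228 and 0.207 between androgen and vehicle libraries of the same number (11697 genes) and at -0.234 to 0.031 otherwise. LNCaP libraries of the same number thus varied together, but no label names a pairing, and the main fits did not use it. Between PC3 and LNCaP libraries the correlations were -0.137 to 0.0473 for the same number and -0.127 to 0.134 otherwise. Alternatives were DESeq2 1.42.0 size factors, its Wald test, the likelihood ratio test, a replicate block, other filters, 1 fit of all 9 libraries and leaving out each library.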

Additional observations from a re-analysis of the deposited data

How the results depend on the processing

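DESeq2 size factors, the DESeq2 Wald test, the likelihood ratio test and the replicate block changed no call of a member in any of the 3 comparisons. With the replicate block, which treats LNCaP libraries of the same number as pairs, 3 members were still called higher and 3 lower with androgen. For PC3 the numbers showed no such pattern (same-number correlations -0.137 to 0.0473). There the block gave 5 higher and 5 lower against androgen-treated LNCaP and 7 higher and 6 lower against vehicle-treated LNCaP. All 9 libraries in a single fit added ABCA12 to those lower in PC3 than in androgen-treated LNCaP. The filter on low counts mattered most, by its construction. With no filter, PC3 had 11 members higher and 11 lower than androgen-treated LNCaP, and 11 higher and 10 lower than vehicle-treated LNCaP, and androgen raised 5 and lowered 7. With at least 10 counts in every library, the genes near 0 in a group drop out, leaving 2 higher in PC3 than in androgen-treated LNCaP (ABCC10 and ABCG1, now called), 3 higher than in vehicle-treated LNCaP and 1 lower with androgen.

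Leaving out each library in turn gave 5 to 7 members higher and 5 to 6 lower in PC3 than in androgen-treated LNCaP, 6 to 7 higher and 6 to 7 lower than in vehicle-treated LNCaP, and 3 to 4 in each direction with androgen. The members named here that changed calls were near 2-fold (ABCB6, ABCC10, ABCD3 and ABCG1). The directions that turned were of log2 fold changes near 0. In PC3 against androgen-treated LNCaP, leaving out libraries gave -0.16 to 0.0072 for ABCA3 and -0.14 to 0.10 for ABCC5. With androgen they were -0.0048 to 0.047 for ABCA3 and -0.083 to 0.030 for ABCB10, which was 0.000659 with no filter. In PC3 against vehicle-treated LNCaP they were -0.13 to 0.041 for ABCA3 and -0.13 to 0.27 for ABCG1, and ABCA3 was 0.0023 with no filter and 0.031 with at least 10 counts. Low-count members are limited by depth, and fitted values are not given where no library of a group exceeded 3 counts. Groups with any library above 3 counts kept the fitted value, as for ABCA13, ABCB11 and ABCC3 with androgen.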
